A study of Homo sapiens with 5 samples.

Results

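MicroRNA (miRNA) counts of the human cell lines Meg-01 and K562 were compared miRNA by miRNA, using 2 of the 5 samples of a series of hematopoietic cell lines. Of the 654 human miRNAs measured in the series, 225 were above background in at least 1 of the 2 lines and were compared. Meg-01 (labelled Meg01) is a megakaryoblastic line and K562 an erythroleukemic line, and both were derived from chronic myeloid leukemia in blast crisis. Each line was 1 sample of total RNA extracted with Trizol, of which 100 ng entered the assay, and the labels name no treatment, passage or genotype. The nCounter assay hybridizes a color-coded reporter to each miRNA and counts the reporters without amplification. The study used lymphocytic lines with little miR-125a-5p and, opposite them, Meg-01 and K562 with high levels of it. As both are transformed lines grown in culture, they stand for the lines themselves and not for megakaryocytes or erythroid cells of the marrow.

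A miRNA guides the silencing complex to messenger RNAs that pair with its seed, bases 2 to 8 from the 5′ end, so miRNAs with the same seed share many predicted targets. Many miRNA genes lie in clusters that are transcribed together and cut into hairpins, and families with a common seed are often spread over several clusters. In blood, miR-144 and miR-451 are made together in erythroid cells, miR-126 and miR-223 are abundant in platelets and myeloid cells, miR-142 is made in nearly all hematopoietic cells, and the miR-17-92 cluster accompanies proliferation.

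The miRNAs furthest apart between the lines are shown first, since the groups described afterwards turn on them. Mature sequences were taken from RefSeq (GRCh38.p14), 5′ to 3′, with the seed in capitals, and 164 of the 225 compared miRNAs had one. Those higher in Meg-01 by the largest ratios were the following, without miR-495 and miR-376c, for which no sequence was assigned.
miR-181a-5p: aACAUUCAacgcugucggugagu
miR-377-3p: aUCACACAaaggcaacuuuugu
miR-125b-5p: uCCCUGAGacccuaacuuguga
miR-99a-5p: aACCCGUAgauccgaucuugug
miR-376a-3p: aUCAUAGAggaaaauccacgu
miR-221-3p: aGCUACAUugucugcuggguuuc
miR-431-5p: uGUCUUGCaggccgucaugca
miR-369-3p: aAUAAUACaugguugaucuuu
miR-136-5p: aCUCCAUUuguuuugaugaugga
miR-543: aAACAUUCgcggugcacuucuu

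Several of those over 2-fold higher in K562 are shown next, followed by the abundant miR-92a, which was within 2-fold and shares its seed with miR-25.
miR-15a-5p: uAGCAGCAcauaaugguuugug
miR-130b-3p: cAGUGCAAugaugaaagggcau
miR-19a-3p: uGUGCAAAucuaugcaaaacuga
miR-10a-5p: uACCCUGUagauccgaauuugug
miR-185-5p: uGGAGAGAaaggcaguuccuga
miR-135b-5p: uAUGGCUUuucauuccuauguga
miR-18a-5p: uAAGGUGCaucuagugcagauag
miR-25-3p: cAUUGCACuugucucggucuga
miR-92a-3p: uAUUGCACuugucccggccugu

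Depth was similar in both samples. The counts over all human miRNAs summed to 109731 in Meg-01 and 105224 in K562, a ratio of 1.04, and the 6 Positive control probes summed to 26631 and 25786, a ratio of 1.03. The 8 Negative control probes averaged 20.4 counts in Meg-01 and 20.3 in K562, but spread more in Meg-01, so that the background threshold, their mean plus 2 SD, was 42.1 counts in Meg-01 and 34.6 in K562. Above it were 178 miRNAs in Meg-01 and 180 in K562, of which 133 were shared, 45 were above in Meg-01 only and 47 in K562 only. The lowest counts above the threshold were 43 in Meg-01, among others of miR-454, and 35 in K562, among others of miR-23b. The highest not above it were 42, among others of miR-133b, and 34, among others of miR-495. Many miRNAs lay close to this limit, 37 in Meg-01 and 49 in K562 being within 10 counts above it. Ratios were formed after scaling to the total human counts, and a line that was not above background was entered at its threshold, which makes the ratio a lower bound ("at least"). Where a pair of counts is given without names of the lines, Meg-01 comes first unless K562 is said to. For 20 miRNAs above background in K562 only, the bound was under 1 and no fold is given. These 20 enter medians as a log2 ratio of 0. With 1 sample per line there was no replicate check and no test. The 95% intervals in parentheses cover counting error only, and a difference between lines cannot be told apart from a difference between cultures, RNA preparations or runs. In RNA from many cells, fewer cells that express a miRNA and fewer copies in each cell cannot be told apart either.

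The 2 lines shared most of their abundant miRNAs and differed in their order. Of the 10 highest of each line, 8 were the same, and these 10 held 57.3% (57.0 to 57.6, exact binomial interval) of the human counts in Meg-01 and 66.9% (66.6 to 67.1) in K562. miR-142-3p was the highest in Meg-01 with 18315 counts, 16.7% of the total (16.5 to 16.9), and had 7436 in K562. miR-92a was the highest in K562 with 22639 counts, 21.5% (21.3 to 21.8), and had 15661 in Meg-01. After scaling, miR-142-3p was 2.36-fold higher in Meg-01 (2.30 to 2.43) and miR-92a 1.51-fold higher in K562 (1.48 to 1.54).

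More miRNAs were over 2-fold higher in Meg-01 than in K562. Of the 225 compared, 45 (20.0%) were over 2-fold higher in Meg-01 and 14 (6.22%) in K562, and 166 were within 2-fold or had a bound under 2-fold. These numbers were the same after scaling to the summed Positive probes, which moved the log2 ratio of miRNAs above background in both lines by 0.01. Of the calls, 23 of the 45 and 3 of the 14 were lower bounds. For 37 of the 45 and 10 of the 14, the limit of the interval nearer to 1 was also over 2-fold. Larger ratios were mostly in one direction with this scaling, with 21 miRNAs over 4-fold and 9 over 8-fold higher in Meg-01 against 2 and 1 in K562. The median log2 ratio of all 225 was 0.14.

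**Figure D1:**
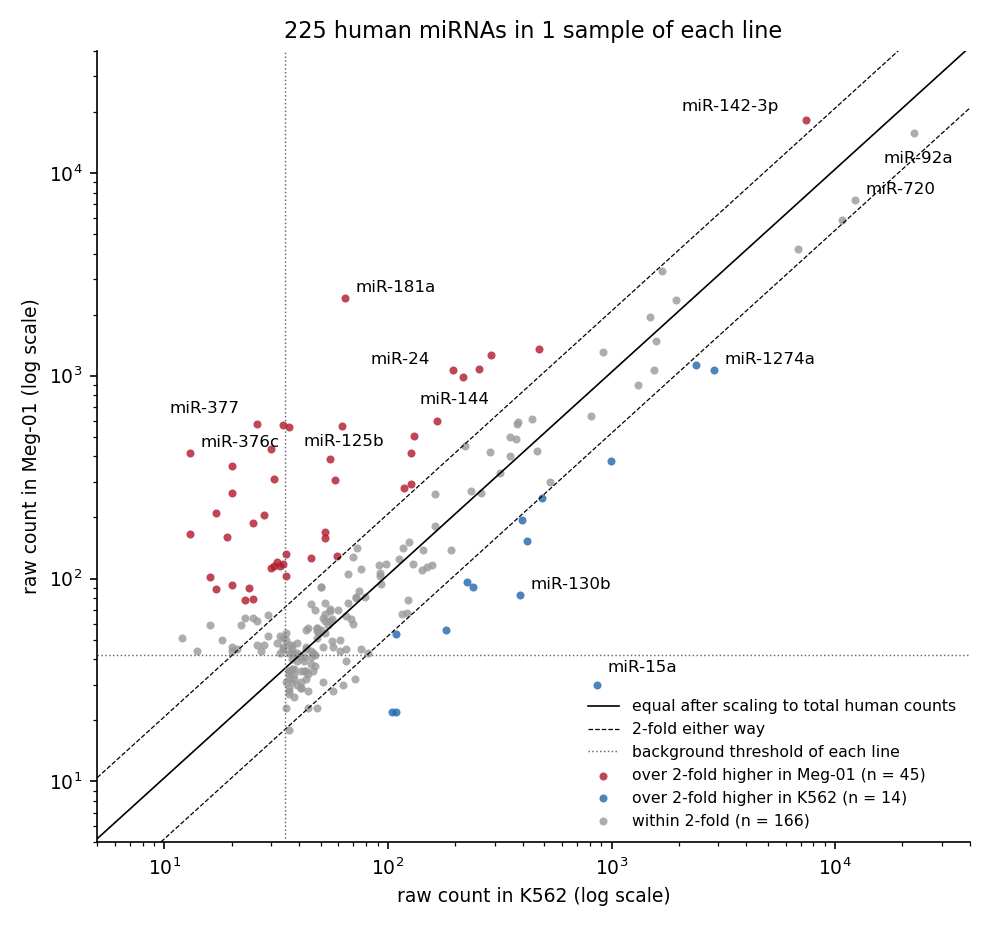
Raw counts of the 225 compared miRNAs in K562 (x axis, log scale) and Meg-01 (y axis, log scale), 1 sample per line. Solid line: equal after scaling to total human counts. Dashed lines: 2-fold. Dotted lines: the background thresholds of 34.6 and 42.1 counts. A miRNA left of or below a dotted line was entered at that threshold, so some gray points lie outside the dashed lines. The red points (45, over 2-fold higher in Meg-01) extend far from the diagonal around 64 counts and below in K562, where miR-181a has 2417 in Meg-01, and miR-15a is the blue point furthest on the other side.

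The split between the lines depended on the scaling. Using the 100 highest miRNAs as the scale, by the geometric mean of their counts in these 2 lines, lowered the log2 ratio of Meg-01 over K562 by 0.73 for miRNAs above background in both lines and gave 25 miRNAs over 2-fold higher in Meg-01 against 41 in K562. Leaving the 10 highest miRNAs out of the total gave 36 against 30, and scaling to the median ratio 42 against 18. The 5 housekeeping mRNA probes, which were 1.79- to 2.72-fold higher in Meg-01 after scaling to total human counts, gave 18 against 101 when used as the scale. Actin (ACTB) had 3352 counts in Meg-01 and 1183 in K562, and the ribosomal protein mRNA RPL19 had 3545 and 1895. Over the main scaling and 6 others, 18 of the 45 miRNAs remained over 2-fold higher in Meg-01 and 13 of the 14 in K562. The others shifted the log2 ratio by at most 0.061 toward Meg-01, but by up to -1.139 toward K562. This check was thus strict for calls in Meg-01 and weak for calls in K562, and its 2 results cannot be compared. The 18 were miR-181a, miR-125b, miR-99a, miR-221, miR-24, let-7g, miR-196b, miR-199b-5p and miR-335, together with 9 of the DLK1-DIO3 region, while miR-1979 was the only one of the 14 that did not remain.

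**Figure D2:**
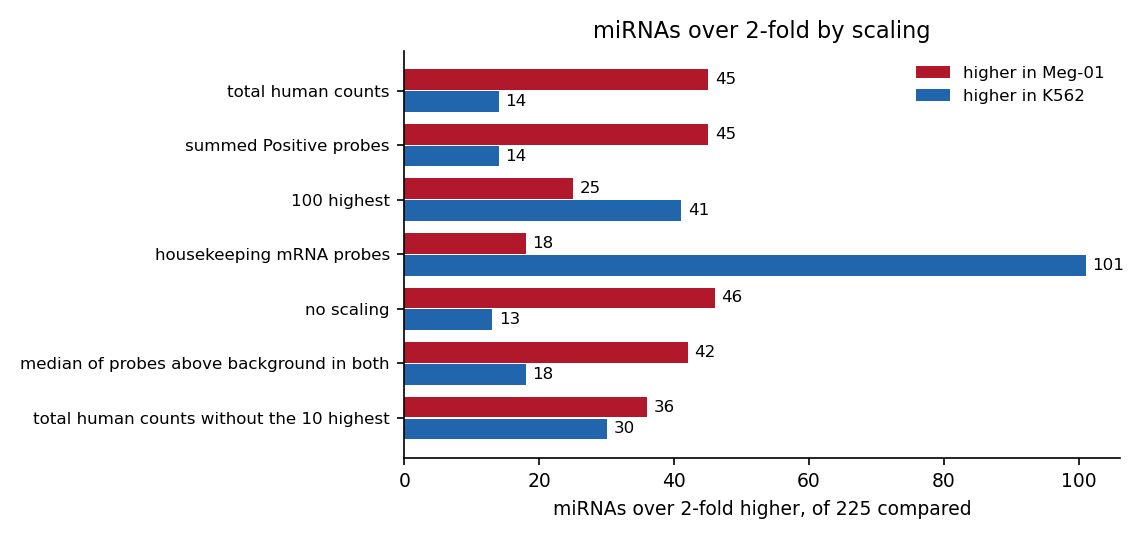
Number of miRNAs, of 225 compared, that were over 2-fold higher in Meg-01 (red) or K562 (blue) under each of 7 scalings. Total human counts and summed Positive probes both give 45 and 14, and the housekeeping mRNA probes give 18 and 101.

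miR-181a had the largest ratio among miRNAs above background in both lines. It had 2417 counts in Meg-01 (2322 to 2515), where it ranked 7, and 64 in K562 (49.3 to 81.7), where it ranked 87. This was a 36.2-fold difference (28.3 to 47.2), and 36.6-fold after scaling to the Positive probes. miR-181a is known from lymphoid development, and it is encoded at 2 places, chr1:198859044-198859153 (MIR181A1, minus strand) and chr9:124692442-124692551 (MIR181A2, plus strand), so its source cannot be read from the mature sequence. The probe shared by miR-181b and miR-181d, members of the same family, had 132 and 35 counts, 3.62-fold higher in Meg-01 (2.48 to 5.41). miR-181c was not above background in either line, with 40 and 23 counts. The lymphoid miR-150 was at background in both as well, with 13 counts in Meg-01 and 20 in K562.

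miRNAs of the imprinted DLK1-DIO3 region formed the largest block of differences. This region of chromosome 14 carries many miRNAs that are transcribed from the maternal allele. The panel held 54 of them, and 30 were above background in Meg-01 against 8 in K562. Of the 32 compared, 16 were over 2-fold higher in Meg-01 and none in K562, beside 20.0% and 6.22% of all compared. In 15 of the 16 the K562 count was not above background, so their ratios are bounds. The exception was miR-136 with 387 and 55 counts, 6.75-fold higher in Meg-01 (5.08 to 9.12). The median log2 ratio of the 32, of which 26 were bounds, was 0.97, and it was 0.08 over the other 193. Counting every panel member, with or without signal, the region summed to 5543 counts in Meg-01, 5.05% (4.92 to 5.18), and 1493 in K562, 1.42% (1.35 to 1.49). The median of the 54 in K562 was 22.5 counts, near the Negative mean of 20.3, so much of the share in K562 is background. The scaled count was the higher one in Meg-01 for 47 of the 54, against 389 of all 654 human miRNAs.

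The counts within the region were uneven. miR-377 had 579 counts in Meg-01 and 26 in K562, at least 16.0-fold. miR-495 had 573 and 34, at least 15.9-fold, and miR-376c had 414 and 13, at least 11.5-fold. These 3 and miR-376a (358 and 20 counts) were at least 9.9-fold higher in Meg-01, whereas close neighbors were at background in both lines. miR-654-3p had 23 and 29 counts, miR-134 had 35 and 23, and miR-381 had 22 and 13. miR-431 had 309 counts in Meg-01 and 31 in K562, at least 8.56-fold, and miR-543 had 211 and 17, at least 5.84-fold. The arms of 1 hairpin also differed, though counts of different probes need not be on 1 scale. miR-369-3p had 264 counts there against 20 in K562, at least 7.31-fold, and miR-369-5p had 18 and 36.

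In the order of the chromosome, the compared members with a single position fell into 2 stretches. miR-544 (182 and 163 counts) was not matched to a position. The first, chr14:100869060-100884783, held 7 of them from miR-337 to miR-136, several within the span of the RTL1 gene, and 4 were over 2-fold higher in Meg-01. The second, chr14:101022066-101066801, held 22 from miR-379 to miR-656 without miR-376a and miR-329, which have more than 1 locus each, and 11 were over 2-fold higher in Meg-01. The medians of the log2 ratio were 1.13 and 0.97. Members in between and at the ends, miR-370, miR-770-5p and miR-1247 (33 and 27 counts, beside DIO3), were not above background in either line. With the housekeeping probes as the scale, 9 members stayed over 2-fold higher in Meg-01 and 3 were over 2-fold higher in K562. Of all compared, 8% and 44.9% were so with that scale.

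**Figure D3:**
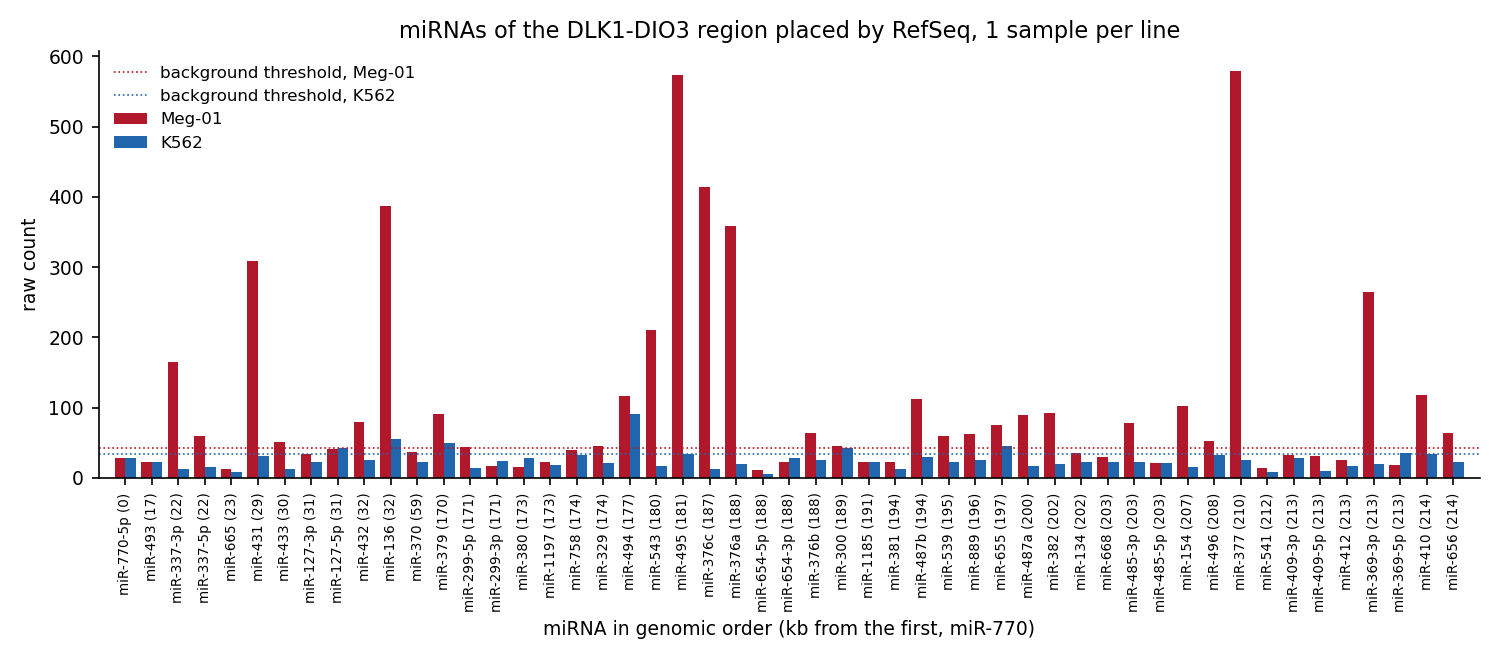
Raw counts in Meg-01 (red) and K562 (blue) of the 51 DLK1-DIO3 miRNAs that RefSeq places in the region, in genomic order with the distance in kb from the first in parentheses. Dotted lines are the background thresholds. Counts in K562 are mostly at or below its threshold, while tall red bars of up to 579 counts stand beside members at background in both lines.

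The median of the let-7 family was higher in Meg-01 under every scaling tried. Its members share the seed GAGGUAG and accompany differentiation in many tissues. Of 9 on the panel 7 were compared, 5 were over 2-fold higher in Meg-01 and none in K562, beside 20.0% and 6.22% of all compared. With the 100 highest as the scale 2 were over 2-fold higher in Meg-01, and with the housekeeping probes 1, beside 11.1% and 8% of all compared. The median log2 ratio was 1.64 and ranged over the scalings from 0.50 to 1.70. let-7a had 1083 and 256 counts, 4.06-fold (3.54 to 4.67), and let-7g had 305 and 58, 5.04-fold (3.80 to 6.80). let-7e differed least among the well counted members, with 260 and 163 counts, 1.53-fold (1.25 to 1.87). Its direction turns with the 100 highest or the housekeeping probes as the scale. Mature let-7 sequences differ by few bases, and how far their probes hold each other's miRNA was not tested. They are shown to make this visible.
let-7a-5p: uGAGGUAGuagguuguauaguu
let-7g-5p: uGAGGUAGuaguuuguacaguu
let-7f-5p: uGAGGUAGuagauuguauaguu
let-7e-5p: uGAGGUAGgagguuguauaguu

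miR-125b and miR-99a were among the largest ratios, and their relatives miR-125a-5p and miR-99b were not. miR-125b had 560 counts in Meg-01 and 36 in K562, just above background, a 14.9-fold difference (10.6 to 21.5). miR-99a had 437 and 30, at least 12.1-fold. miR-125a-5p, in contrast, had 500 and 350 counts, 1.37-fold (1.19 to 1.58), and miR-99b had 118 and 98, 1.16-fold (0.88 to 1.53). Both directions turn with the 100 highest or the housekeeping probes as the scale. That of miR-99b also turns without the 10 highest in the total. The genes of these miRNAs lie apart. miR-99a (chr21:16539089-16539169, plus strand) lies with let-7c within the span of MIR99AHG, which also holds 1 of the 2 miR-125b genes, and let-7c with 115 and 33 counts was at least 3.19-fold higher in Meg-01. The cluster of miR-99b, let-7e and miR-125a on chromosome 19 (chr19:51692612-51693339) had all 4 compared members within 2-fold. The other miR-125b gene lies near miR-100 within MIR100HG on chromosome 11, and miR-100 with 40 and 26 counts was not above background in either line. The relatives are shown for comparison with the 2 sequences given above.
miR-125a-5p: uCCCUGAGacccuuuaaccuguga
miR-99b-5p: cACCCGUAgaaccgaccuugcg

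miRNAs known from erythroid cells were not over 2-fold higher in the erythroleukemic line with the main scaling. miR-144 had 981 counts in Meg-01 and 216 in K562, 4.35-fold higher in Meg-01 (3.76 to 5.07). Its cluster partner miR-451 had 129 and 59, 2.10-fold (1.53 to 2.90). miR-486-3p had 138 and 143, within counting error of equal. The direction of miR-144 was the same under all scalings, and that of miR-451 turned with the housekeeping probes as the scale (log2 ratio -0.071). With that scale miR-486-3p was over 2-fold higher in K562 and neither of the others over 2-fold in Meg-01. The 3 erythroid markers thus did not set K562 above Meg-01 with the main scaling. Of them 2 were over 2-fold higher in Meg-01 and none in K562, beside 20.0% and 6.22% of all compared. The other arm of miR-486, miR-486-5p, was not on the panel, and miR-144 and miR-451 share 1 cluster. The lineage of the line cannot be read from so few markers.

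The megakaryocyte and progenitor miRNAs mostly leaned to Meg-01 with the main scaling. Of 12 on the panel, the scaled count was the higher one in Meg-01 for 11, against 389 of all 654 human miRNAs. Of the 10 compared, 9 had a ratio above 1 and 1 a ratio below, and 5 of the 10 were bounds. Among these 10, 4 were over 2-fold higher in Meg-01 and 1 in K562, beside 20.0% and 6.22% of all compared. The median log2 ratio was 0.68, and 0.08 with the 100 highest and 0.00 with the housekeeping probes as the scale. The 4 were miR-125b, miR-99a, miR-155 (121 and 32 counts, at least 3.35-fold) and miR-27a (90 and 24, at least 2.49-fold). miR-126, the endothelial and megakaryocytic miRNA, had 1954 counts in Meg-01 and 1482 in K562, 1.26-fold (1.18 to 1.35), a difference that turns with the 100 highest or the housekeeping probes as the scale and without the 10 highest in the total. miR-10a was the 1 higher in K562, with 239 counts against 91 in Meg-01, 2.74-fold (2.14 to 3.53). miR-223 (3269 and 1684 counts) was within 2-fold, and miR-10b (47 and 28) had a bound under 2-fold. miR-130a, which is known from megakaryocyte differentiation, had 9 and 6 counts and was not above background in either line.

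The blood-cell miRNAs of the MIR142 and MIR223 genes together took a larger share of Meg-01. miR-142-3p, miR-142-5p and miR-223 held 20.1% of the counts in Meg-01 (19.8 to 20.3) and 8.88% in K562 (8.71 to 9.05). miR-142-5p, from the other arm of the miR-142 hairpin, had 450 and 220 counts, 1.96-fold higher in Meg-01 (1.67 to 2.32), close to the 2.36-fold of miR-142-3p. miR-223, the miRNA of granulocytes and platelets, had 3269 and 1684 counts, 1.86-fold (1.76 to 1.98). The median log2 ratio of the 3 was 0.97 and changed to -0.17 with the housekeeping probes as the scale.

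**Figure D4:**
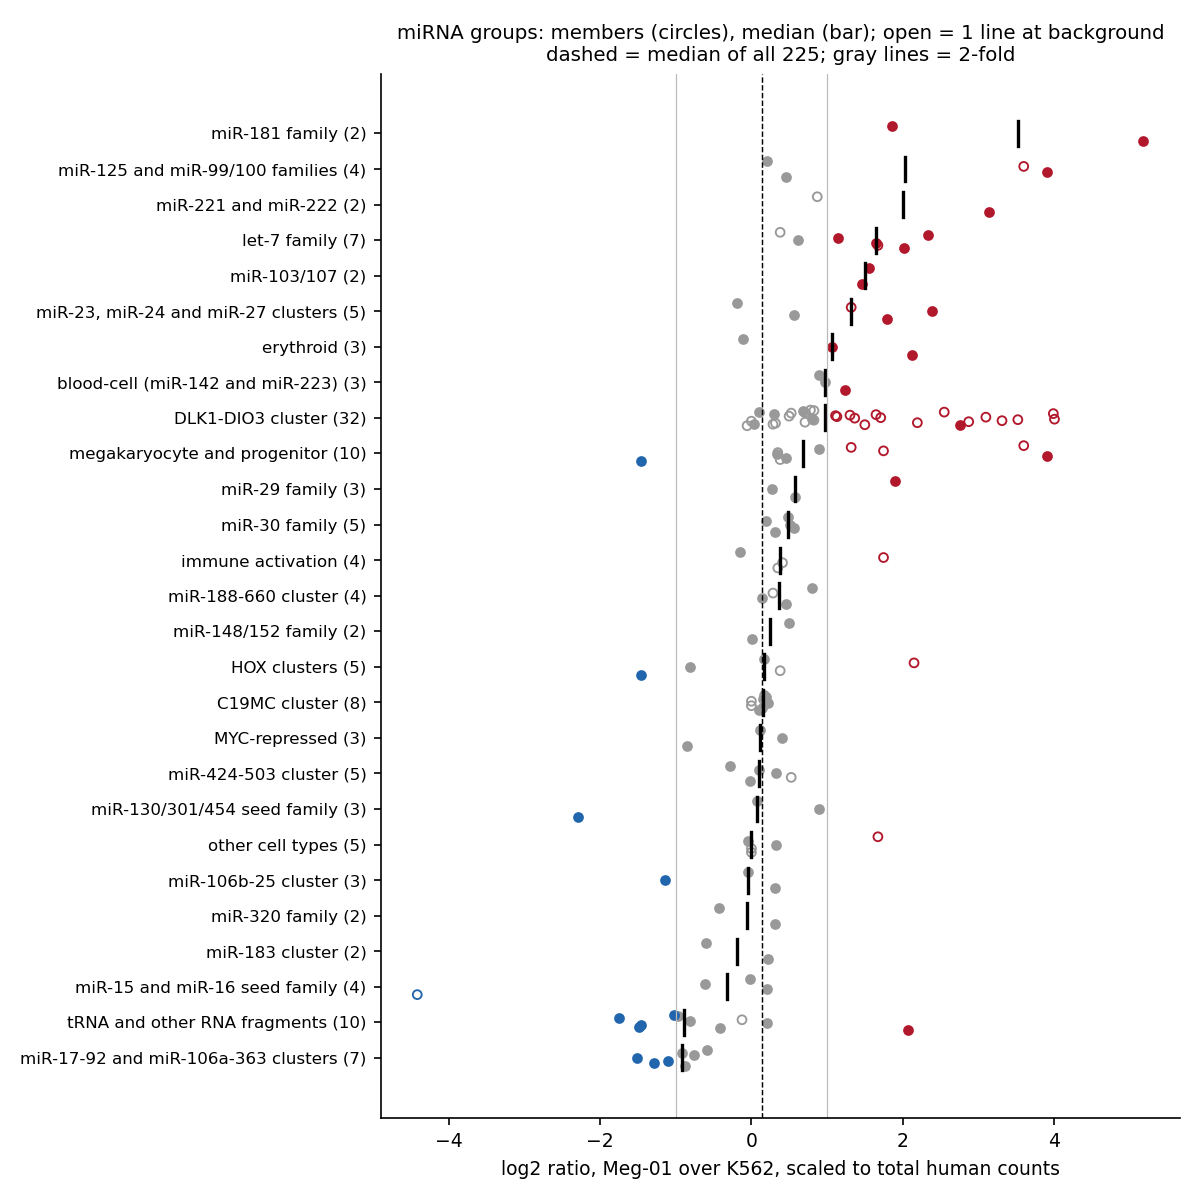
Log2 ratio of Meg-01 over K562 (x axis, scaled to total human counts) of the members of 27 miRNA groups, with the number compared in parentheses. Circles are miRNAs, open where 1 line was at background, red or blue where over 2-fold. Black bars are group medians and the dashed line is the median of all 225, 0.14. The miR-181, miR-125 and miR-99/100, and let-7 groups lie to the right and the miR-17-92 clusters to the left.

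Of the groups that took a larger share of K562, the miR-17-92 and miR-106a-363 clusters held the most counts. All 7 compared members of the miR-17-92 and miR-106a-363 clusters were higher in K562, 3 of them over 2-fold, beside 6.22% of all compared. All 7 kept this direction under every scaling, none of which moved log2 ratios toward Meg-01 by more than 0.061. All 7 were over 2-fold with the 100 highest, with the housekeeping probes and without the 10 highest in the total. With these scalings, 18.2%, 44.9% and 13.3% of all compared were over 2-fold higher in K562. Together with miR-363, which was at background, the 7 held 39.4% of the counts in K562 (39.1 to 39.7) and 24.0% in Meg-01 (23.8 to 24.3). The probe for miR-20a and miR-20b had 10678 counts in K562 and 5882 in Meg-01, 1.89-fold (1.83 to 1.96), and miR-19b had 6805 and 4212 (K562 first), 1.68-fold (1.62 to 1.75). Ratios within the cluster were unequal. miR-19a was 2.84-fold higher in K562 (2.36 to 3.44), with 417 counts against 153, and miR-18a was 2.44-fold higher (1.92 to 3.14), with 225 against 96, both above the 1.51-fold of miR-92a from the same transcript. miR-18b, of the chromosome X cluster, had 109 in K562 and 53 in Meg-01, 2.15-fold (1.53 to 3.04). miR-92a is also made from the chromosome X cluster. Of the related miR-106b-25 cluster within the MCM7 gene, miR-25 was 2.20-fold higher in K562 (2.05 to 2.37) with 2380 against 1126 counts. Its cluster neighbors miR-93 (261 in K562 and 264 in Meg-01) and miR-106b (374 in K562 and 485 in Meg-01) were within 2-fold.

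miR-15a was the largest ratio in the direction of K562. It had 860 counts in K562, where it ranked 16, and 30 in Meg-01, which was below the threshold of 42.1, at least a 21.3-fold difference. miR-16, the cluster partner of miR-15a, was far from this ratio, with 1308 counts in K562 and 895 in Meg-01, 1.52-fold (1.40 to 1.66). miR-15b had 1951 in K562 and 2357 in Meg-01, 1.16-fold higher in Meg-01 (1.09 to 1.23), a direction that turns with the 100 highest or the housekeeping probes as the scale and without the 10 highest in the total. miR-15a comes from chr13:50049119-50049201 (minus strand, within the span of DLEU2) beside 1 copy of miR-16, and miR-15b lies beside the other copy on chromosome 3 (chr3:160404588-160404685, within the span of SMC4). miR-16 as measured is the sum of both copies. The fourth compared member with the seed AGCAGCA, miR-424, had 81 counts in Meg-01 and 79 in K562. The others are shown for comparison with miR-15a above.
miR-15b-5p: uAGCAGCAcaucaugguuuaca
miR-16-5p: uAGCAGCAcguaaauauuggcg
miR-424-5p: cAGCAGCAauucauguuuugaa

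Other miRNAs higher in K562 had intermediate counts. miR-130b (chr22:21653304-21653385, plus strand) had 391 counts in K562 and 83 in Meg-01, 4.91-fold (3.87 to 6.30), whereas miR-301a and miR-454 with the same seed were within 2-fold. miR-185 had 109 and 22 counts and miR-135b 104 and 22 (K562 first), at least 2.70- and 2.58-fold higher in K562. miR-590-5p had 397 in K562 and 195 in Meg-01. miR-130b, miR-185, miR-135b and miR-590-5p remained over 2-fold higher in K562 under every scaling. No scaling moved log2 ratios toward Meg-01 by more than 0.061, so this was a weak check.

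Several probes carry names of fragments of transfer RNAs or other abundant RNAs, which were once annotated as miRNAs. The 19 of them on the panel held 17.4% of the counts in K562 (17.2 to 17.7) and 10.4% in Meg-01 (10.2 to 10.5), and of 10 compared 4 were over 2-fold higher in K562 and 1 in Meg-01, beside 6.22% and 20.0% of all compared. miR-720 ranked 2 in K562 with 12331 counts and had 7308 in Meg-01, 1.76-fold (1.71 to 1.81). With K562 first, miR-1274a had 2860 and 1061, 2.81-fold (2.62 to 3.02), and miR-1274b 996 and 378, 2.75-fold (2.44 to 3.10). Unlike these, miR-1246 had 1264 counts in Meg-01 and 289 in K562 and was 4.19-fold higher in Meg-01 (3.69 to 4.78). miR-1974 had 181 counts in K562 and 56 in Meg-01, 3.37-fold higher in K562 (2.49 to 4.63).

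miR-23, miR-24 and miR-27 are encoded in clusters on chromosomes 9 and 19. miR-23a and miR-27a of the chromosome 19 cluster had 597 and 165, and 90 and 24 counts, both over 2-fold higher in Meg-01. miR-27b of the chromosome 9 cluster had 423 and 463, within 2-fold, and miR-23b had 54 and 35, 1.48-fold higher in Meg-01 (0.95 to 2.33). Whether the ratios of miR-23b and miR-27a differ was not tested. miR-24, which is encoded in both clusters, had 1063 and 196 counts, 5.20-fold (4.46 to 6.09). miR-27a and miR-27b differ by 1 base and their log2 ratios were 1.32 (a bound) and -0.19.

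miR-221 and miR-222 come from 1 transcript on chromosome X (chrX:45746157-45747124). miR-221 had 568 counts in Meg-01 and 62 in K562, 8.79-fold (6.75 to 11.6), and miR-222 had 66 and 29, at least 1.83-fold. The ratio bound of miR-222 does not separate it from miR-221, since K562 was not above background. miR-103 and miR-107, which differ by 1 base, gave nearly the same ratio, 2.75-fold (2.48 to 3.06) for 1355 and 472 counts and 2.93-fold (2.13 to 4.09) for 159 and 52. Of the miR-29 family, miR-29c with 507 and 130 counts was 3.74-fold higher in Meg-01 (3.08 to 4.57), while miR-29a (592 and 380) and miR-29b (69 and 55) were within 2-fold. miR-30a, miR-30b, miR-30c, miR-30d and miR-30e were within 2-fold too, with a median log2 ratio of 0.49 that turned to -0.24 with the 100 highest as the scale and to -0.65 with the housekeeping probes. miR-21, an abundant miRNA of many transformed cells, had 1486 and 1588 counts, 1.11-fold higher in K562 (1.04 to 1.20), and was 1 of the 8 among the 10 highest of both lines.

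The miRNAs of the HOX clusters, genes of body axis and myeloid patterning, pointed in different directions. miR-196b, encoded on chromosome 7 in the HOXA cluster, had 160 counts in Meg-01 and 19 in K562, at least 4.43-fold. miR-196a, which differs from it by 1 base and is encoded on chromosomes 12 and 17, had 45 and 76, 1.76-fold higher in K562 (1.20 to 2.61). miR-10a of the HOXB cluster was higher in K562 as given above, and miR-615-5p with 87 and 74 counts was within 2-fold.
miR-196a-5p: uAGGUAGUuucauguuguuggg
miR-196b-5p: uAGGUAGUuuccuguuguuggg

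Seeds could be read for 164 of the 225 compared miRNAs, those matched to a mature sequence, and 22 seeds were shared by 2 or more of them. The probe shared by miR-181b and miR-181d was not matched, so the miR-181 family is not among the 22. The log2 ratios within a seed ranged over more than 2 in 6 of them, which were those of miR-15a, miR-125b, miR-99a, miR-130b, miR-196b and miR-221. That of miR-221 is taken from the bound of miR-222 and may be smaller. With the main scaling, in none of the 22 was 1 member over 2-fold higher in Meg-01 and another over 2-fold higher in K562. With the 100 highest or the housekeeping probes as the scale, or without the 10 highest in the total, miR-196b and miR-196a were such a pair. The range of the miR-15a seed was 4.63, counted from the bound of miR-15a, and that of the miR-125 seed 3.45.

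**Figure D5:**
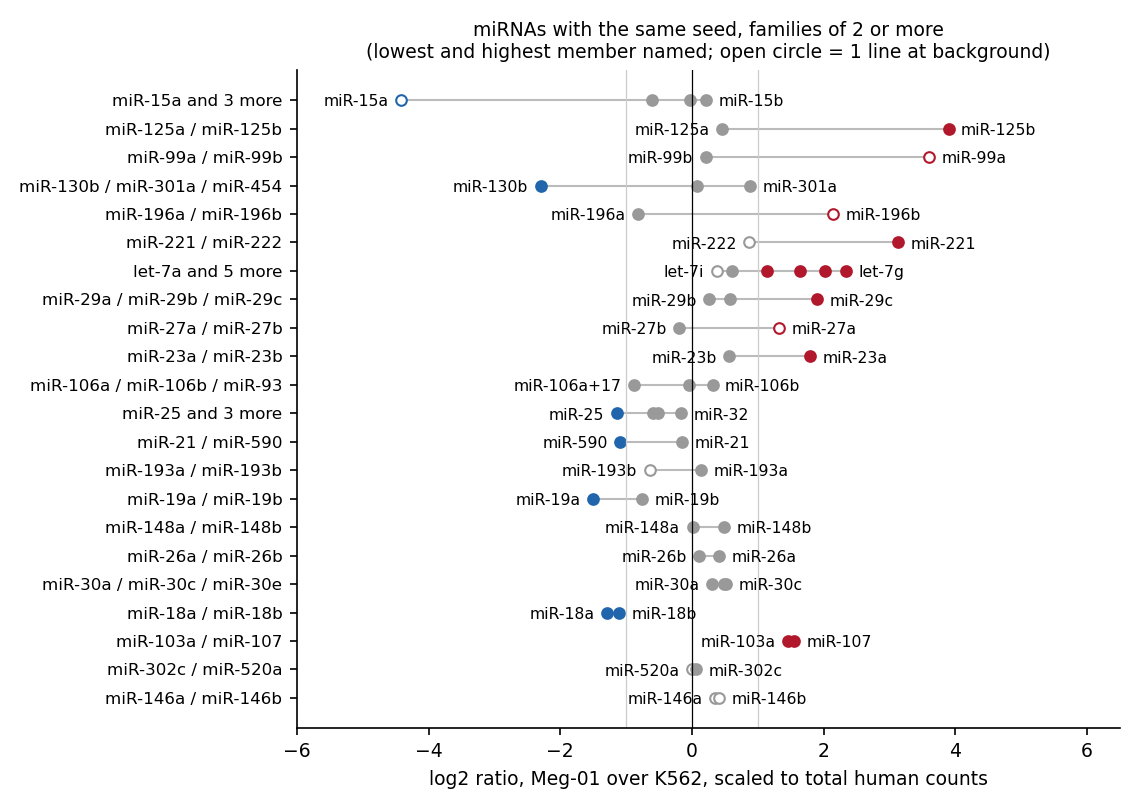
Log2 ratio of Meg-01 over K562 (x axis, scaled to total human counts) for the 22 seeds with 2 or more compared miRNAs that have a matched sequence, ordered by range. Circles are miRNAs, open where 1 line was at background, with the lowest and highest named. miR-15a, at -4.41, lies apart from miR-15b at 0.21, and miR-103a and miR-107 nearly coincide.

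Markers of other cell types were at background about as often as the whole panel. Of 15 miRNAs known from lymphoid, epithelial, liver, muscle and neural cells, 10 were not above background in either line, beside 429 of all 654 human miRNAs. Among the 10 were miR-122 (34 and 17 counts), miR-124 (20 and 22), miR-205 and miR-200c. miR-9, known from neurons and from some leukemias, was the 1 over 2-fold with the main scaling, with 115 counts in Meg-01 and 31 in K562, at least 3.19-fold. The muscle miR-206 was above background in both lines and within 2-fold, with 94 and 93 counts, and miR-203, miR-133b and miR-200b lay between 35 and 47 counts. The placental chromosome 19 cluster gave no difference over 2-fold with the main scaling, beside 20.0% of all compared in Meg-01 and 6.22% in K562. With the housekeeping probes 2 of its members were over 2-fold higher in K562, beside 44.9% of all compared. Of its 39 on the panel 8 were compared, the highest being miR-1283 with 103 and 92 counts, and the median over all 39 was 24 counts in Meg-01 and 21 in K562, beside 28 and 24 over all human miRNAs.

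With the main scaling the remaining groups held no miRNA over 2-fold either way, apart from miR-155 among 4 miRNAs of immune activation, beside 20.0% of all compared in Meg-01 and 6.22% in K562. With the housekeeping probes as the scale, 44.9% of all compared were over 2-fold higher in K562. Each of these groups then held such members, 3 in the miR-424-503 cluster, 2 among those repressed by MYC and 1 in each of the others. They were the miR-424-503 cluster (5 compared), the cluster of miR-188 and miR-660 on chromosome X (4), the miR-148 and miR-152 family (2), the miR-183 cluster (2), the miR-320 family (2) and miRNAs repressed by MYC (3). miR-96, a sensory organ miRNA of the miR-183 cluster, had 1549 counts in K562 and 1064 in Meg-01, 1.52-fold (1.40 to 1.64). miR-26a, 1 of those repressed by MYC, had 611 counts in Meg-01 and 442 in K562, 1.33-fold, whereas miR-22 of the same group had 67 and 116. miR-335 and miR-199b-5p belonged to none of the groups and had large ratios, with 206 and 28, and 187 and 25 counts, at least 5.71- and 5.18-fold higher in Meg-01.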

How the data were processed

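Total RNA of 1 Meg-01 and 1 K562 sample was profiled by nCounter. The authors deposited raw counts per probe as read by the instrument, not normalized, for 753 probes: 654 human miRNAs, 80 virus miRNAs and the controls. The authors also deposited a background-subtracted signal for the human probes, the count minus 1 constant per line, used here as an alternative only; its columns and files of the 3 other lines were not used. The kit version of these samples is not given in the sources used here. Counts were scaled to the total human counts. Intervals are exact Poisson for counts, exact conditional binomial for ratios and exact binomial for shares, at 95%. Calculations used Python 3.11.15, NumPy 2.4.6, pandas 2.3.3 and SciPy 1.17.1 and were tested on simulated counts.

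Named miRNAs are each line's 10 highest, the 12 with the largest ratio each way with at least 100 counts in the higher line, up to 4 of the highest members of each of 27 groups, 7 miRNAs the study singled out, and members named after their values were seen, mostly to show neighbors or members at background. Members and lists were chosen with earlier results of these data known. Of 646 probes for 1 miRNA, 455 were matched to a mature sequence of RefSeq. The comparison used the scaling to total human counts rather than to the 100 highest miRNAs of the methods, which is an alternative. Gene positions are those of RefSeq, build GRCh38.p14.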

Additional observations from a re-analysis of the deposited data

Results flagged for a closer look

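Probes for virus miRNAs were part of the panel and of no comparison. Of 80, 8 were above background in Meg-01 and 10 in K562, 7 of them in both lines, and none differed by over 2-fold. The highest was ebv-miR-BART16 with 346 counts in Meg-01 and 316 in K562. Whether virus miRNAs were present in these lines was not tested.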

How the results depend on the processing

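No paired analysis was possible because each line has 1 sample, and for the same reason no sample could be left out. Scaling to the 100 highest gave a median log2 ratio of -0.57 and 25 miRNAs over 2-fold higher in Meg-01 and 41 in K562. Scaling to the housekeeping probes gave a median of -0.97 and 18 and 101, 119 in all, and turned miR-451 and the median of the erythroid group to -0.071. Without the 10 highest in the total, 30 were higher in K562. The deposited table gave 69 in Meg-01 and 89 in all, with 12 groups whose median was over 2-fold, against 7 with the main scaling, all in Meg-01. With the 100 highest 3 groups had such a median in Meg-01 and 3 in K562, and with the housekeeping probes 1 and 9. With the mean plus 2 SD subtracted, 31 were higher in K562 and 11 groups had such a median, 8 in Meg-01 and 3 in K562. At 1.5-fold 30 were higher in K562 and 90 in either line, and at 4-fold 21 in Meg-01, 2 in K562 and 23 in all. With the mean of the Negative probes as the threshold, 477 miRNAs were above background in Meg-01, 411 in K562 and 514 in at least 1. The Positive probes, no scaling, the median ratio, the mean subtracted, and the other 2 thresholds (highest Negative probe, mean plus 3 SD) kept the numbers over 2-fold within 1.5 times. Of the 41 miRNAs over 2-fold that the naming rule chose, not counting those named after their values were seen, 27 remained so in the same direction with the housekeeping probes and 34 with the 100 highest. The limits of these values are the single sample per line, counts near background for many compared miRNAs, and background that was not subtracted, which brings ratios of low counts toward 1.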
